A study of Citrus sinensis with 6 samples.

Results

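Sweet orange (Citrus sinensis) has few genes annotated to the handling of boron, and the 5 described here are Cs_ont_3g007940, Cs_ont_1g011580, Cs_ont_9g000650, Cs_ont_2g018890 and Cs_ont_2g001540. They are a set list of genes whose Gene Ontology (GO) annotation in the deposited table names borate or anion transport or the cellular response to levels of boron-containing substances, 5 of 29875 genes. The list does not hold every gene with a transport term of this kind, and the GO term that these 5 genes and no others of the table carry is the response to boron-containing substance. Leaf RNA of tissue-cultured plants of the variety Bingtang was sequenced in 6 libraries after 25 days, 3 of boron-deficient plants (T) at 0.01 mg/L and 3 of control plants (CK) at 0.25 mg/L. The series design calls this amount boron, the methods call it boric acid, and the treatment protocol of the labels gives the low supply for every library. The methods describe the same variety and culture for both groups, plants regenerated from callus of seed-grown shoots, first raised on a medium with sucrose and the auxin IBA, and the labels give no age or genotype that sets the groups apart. The library titles name leaf for T and leaf blades for CK, while the tissue label is leaf blade for all 6 libraries, so a difference in the leaf part sampled was not tested. No label ties a library to a plant, and the p-values rest on the spread among the 3 libraries of a group, which may be technical.

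Boron reaches plants as boric acid, an uncharged molecule that crosses membranes by diffusion and through channels of the aquaporin family, mainly those of its NIP branch. Borate exporters of the BOR family, relatives of animal anion exchangers, move it towards the xylem or out of the cell. Its best known task is to cross-link the pectin rhamnogalacturonan II in the cell wall. In Arabidopsis thaliana, a NIP channel of the root is known for higher transcript levels at low boron.

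The GO terms split the 5 genes by role. Cs_ont_3g007940 and Cs_ont_1g011580 carry borate transport, a term that 3 genes of the table hold. Cs_ont_3g007940 is also the only one of the 5 with water channel activity, arsenite transport and the lateral plasma membrane, and Cs_ont_1g011580 the only one with urea and glycerol transport. They share 53 GO terms, 82.8% of those of Cs_ont_3g007940 and 75.7% of those of Cs_ont_1g011580. Cs_ont_9g000650 carries anion transport, regulation of pH, vacuole, endosome, root development and the response to boron-containing substance, but no borate transport term. Cs_ont_2g018890 and Cs_ont_2g001540 are annotated as DNA-binding transcription factors that respond to boron levels, phosphate starvation and chitin, and all 71 of their GO terms are the same. The third borate transport gene, Cs_ont_9g004840, is not among the 5. It had 1 recovered read in CK replicate 2 and 0 reads in the other 5 libraries, where 3 reads, the limit a count of 0 allows, are worth 0.176 to 0.238 FPKM, the read count scaled to gene length and library size. These limits cover counting error only.

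Transcripts of Cs_ont_3g007940, the gene annotated to borate and water channel activity, were about 5 times as abundant in boron-deficient leaves as in control leaves by the group means. Its level was 24.9, 5.41 and 16.9 FPKM in T replicates 1 to 3, against 2.34, 2.97 and 3.92 FPKM in CK replicates 1 to 3. Every T library lay above every CK library, and the lowest T library stood 1.38-fold above the highest CK library. The T libraries were far apart, with replicate 2 well below replicates 1 and 3, whereas the CK libraries lay close together. The spread within T was 4.61-fold between its lowest and highest library, and within CK it was 1.67-fold. The means were 15.7 ± 9.81 FPKM in T and 3.08 ± 0.796 FPKM in CK (SD, n = 3 each), a ratio of 5.11. These levels rest on 829, 230 and 670 recovered reads in T and 84, 108 and 177 in CK, so that counting error is small beside the spread between libraries.

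**Figure D1:**
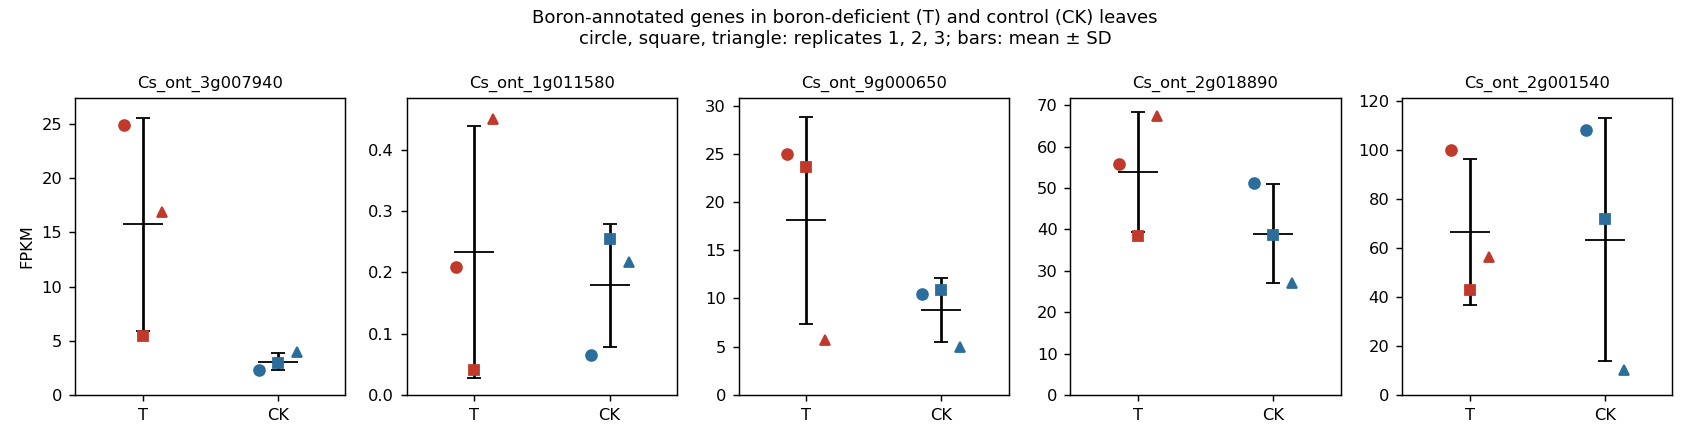
FPKM (y axis, from 0, a scale of its own for each gene) of the 5 genes in T (red, left) and CK (blue, right), 1 point per library, with circles, squares and triangles for replicates 1, 2 and 3 and black bars for the mean ± SD. The T points of Cs_ont_3g007940, from 5.41 to 24.9 FPKM, lie above its CK points, from 2.34 to 3.92 FPKM, and the points of the other 4 genes overlap between T and CK.

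The change was tested with limma on log2(FPKM + 1), a scale on which changes at low FPKM look smaller than they are. A gene is called a differentially expressed gene (DEG) here at a fold change of at least 2 on this scale with an unadjusted p of at most 0.05, a threshold without correction for the number of genes. On it, Cs_ont_3g007940 was a DEG, at 1.84 in log2 fold change (standard error 0.51, 95% confidence interval 0.61 to 3.06). It was the only DEG of the 4 genes that could be tested, where 1.27% of the 16421 tested genes were DEGs higher in T and 1.08% DEGs lower in T. It was also the only one of the 4 with every T library above every CK library, where 4.46% of the tested genes had that order and 3.71% the opposite one. Its unadjusted p of 0.00999 (limma) ranked 207 among the tested genes and its fold change ranked 109 among the rises. The correction over all genes was not passed, with an adjusted p of 0.783 (limma, Benjamini-Hochberg), and the exact permutation test of the mean FPKM gave p = 0.1 (two-sided), the smallest that 3 libraries against 3 allow. At an adjusted p under 0.05, limma called 0 of the 4 genes, and limma voom on the recovered reads called 0 as well, with 1 of them, Cs_ont_3g007940, at an unadjusted p under 0.05 in each. Over all tested genes, 2.29% were higher and 2.49% lower in T at that unadjusted p by limma. The adjusted threshold took 0.00609% of the tested genes as higher in T, which is 1 gene, and 0% as lower.

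**Figure D2:**
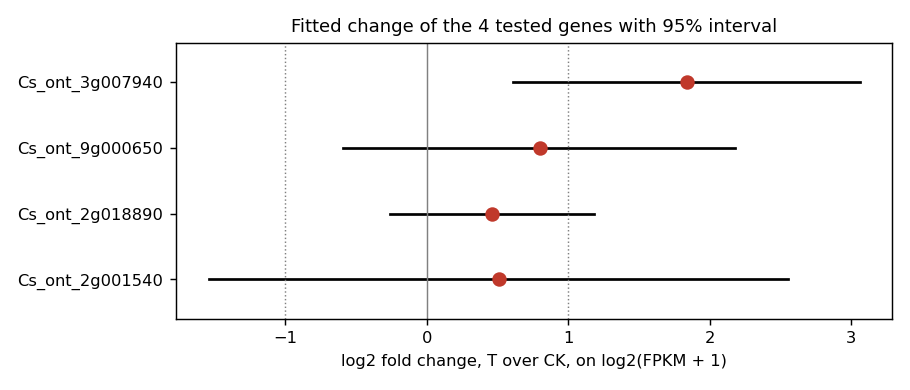
Fitted log2 fold change of T over CK on the log2(FPKM + 1) scale (x axis) for the 4 tested genes (rows), points for the estimate, lines for the 95% confidence interval and dotted lines at a fold of 2. The interval of Cs_ont_3g007940, 0.61 to 3.06, lies above 0, and those of the other 3 genes include 0.

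The call of Cs_ont_3g007940 was the same in each of the 14 other settings tried, with log2 fold changes from 1.24 to 2.52 and unadjusted p from 1.67e-04 to 0.034 (limma). Leaving out T replicate 1, the library with the highest level, gave a log2 fold change of 1.41 and leaving out T replicate 2, the T library nearest to CK, gave 2.42. Its adjusted p stayed between 0.163 and 1 in these settings (limma).

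**Figure D3:**
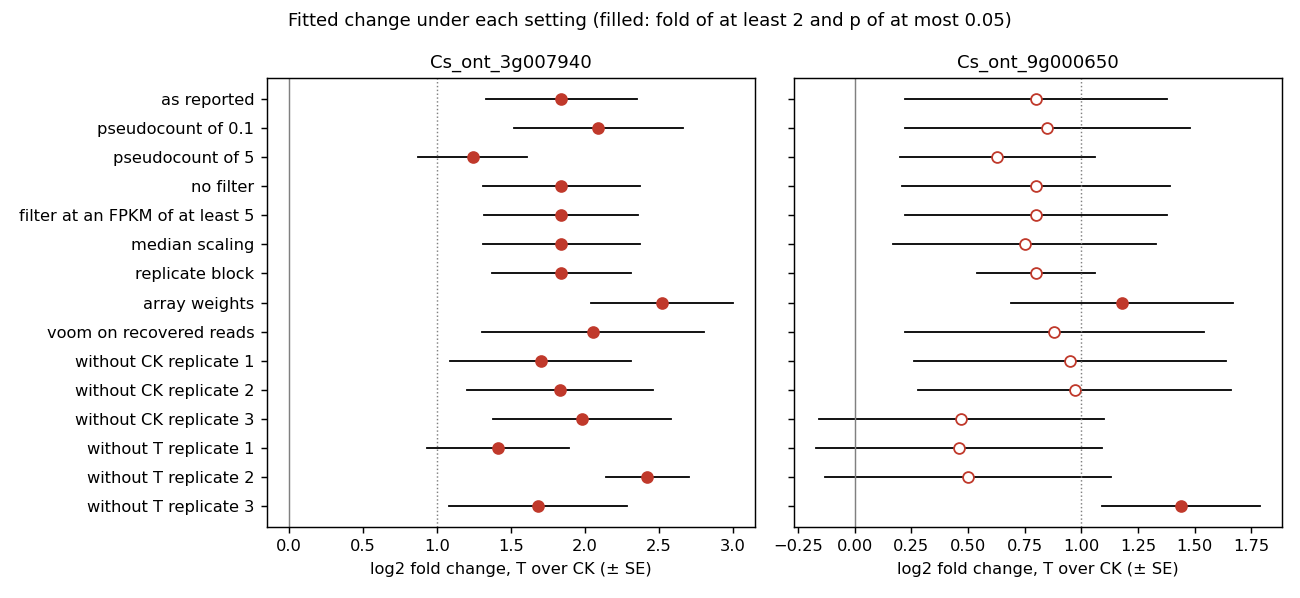
Log2 fold change of T over CK (x axis, a range of its own in each panel) ± standard error for Cs_ont_3g007940 (left) and Cs_ont_9g000650 (right) as reported and under each other setting (rows), with filled points for a DEG and a dotted line at a fold of 2. All points of Cs_ont_3g007940 are filled, and those of Cs_ont_9g000650 are filled with array weights (1.18) and without T replicate 3 (1.44).

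Cs_ont_1g011580, the borate gene with urea and glycerol transport terms, had low levels in leaves of both groups. It stood at 0.208, 0.0407 and 0.45 FPKM in T replicates 1 to 3, against 0.0643, 0.254 and 0.217 FPKM in CK replicates 1 to 3. Both groups have a library close to the limit of 3 reads, T replicate 2 and CK replicate 1, and all CK values lie within the range of T. The counts behind them were 12, 3 and 31 reads in T and 4, 16 and 17 reads in CK, 46 in T and 37 in CK in all. It did not reach 1 FPKM in any library and so was not tested with the other genes. The exact permutation test of its mean FPKM gave p = 0.9 (two-sided, n = 3 each). Without the filter, its log2 fold change by limma was 0.06 (standard error 0.14, adjusted p = 0.979). All its values lie below the 1 FPKM added before the log. Even a large change would look small on this scale, so this estimate cannot tell a change from none. A difference between T and CK was not detected for this gene, whose T libraries lay 11.1-fold apart.

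Cs_ont_9g000650, the gene annotated to anion transport and pH regulation, had a higher mean in T than in CK, but its libraries overlapped. It stood at 25.0, 23.6 and 5.69 FPKM in T replicates 1 to 3, against 10.5, 10.9 and 4.96 FPKM in CK replicates 1 to 3. In T, replicates 1 and 2 were above all CK libraries while replicate 3 was within their range, and in CK replicate 3 was the lowest. The means were 18.1 ± 10.8 FPKM in T and 8.78 ± 3.32 FPKM in CK (SD, n = 3 each), a ratio of 2.06. limma gave a log2 fold change of 0.80 (standard error 0.58, 95% confidence interval -0.59 to 2.18) with an adjusted p of 0.999, and the exact permutation test gave p = 0.3 (two-sided). The gene was not a DEG with all libraries, but it became one without T replicate 3, at a log2 fold change of 1.44 (standard error 0.35, limma adjusted p = 0.501, against 0.335 to 1 over the other settings). The log2 fold change was smaller without T replicate 1 (0.46), without T replicate 2 (0.50) and without CK replicate 3 (0.47), and the gene was not a DEG in any of these.

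The low T library of this gene was not that of Cs_ont_3g007940. T replicate 2 was the lowest T library for 4 of the 5 genes, and T replicate 3 for Cs_ont_9g000650 alone. CK replicate 3 was the lowest CK library for Cs_ont_9g000650 and both transcription factor genes, but the highest for Cs_ont_3g007940.

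The transcription factor genes were the most abundant of the 5, and a difference between the groups was not detected for either. Cs_ont_2g018890 stood at 55.8, 38.4 and 67.3 FPKM in T replicates 1 to 3, against 51.1, 38.6 and 27.1 FPKM in CK replicates 1 to 3. Its T and CK values overlap, although T replicates 1 and 3 are above every CK library. The means were 53.8 ± 14.5 FPKM in T and 38.9 ± 12.0 FPKM in CK (SD, n = 3 each), from 1225 to 2674 reads per library. limma gave a log2 fold change of 0.46 (standard error 0.30, 95% confidence interval -0.26 to 1.18, adjusted p = 0.999), and the exact permutation test gave p = 0.3 (two-sided). The log2 fold change was 0.23 without CK replicate 3 and 0.29 without T replicate 3. It was larger, at 0.68, without CK replicate 1 and also without T replicate 2.

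Cs_ont_2g001540 stood at 99.9, 42.9 and 56.2 FPKM in T replicates 1 to 3, against 108, 72.0 and 10.1 FPKM in CK replicates 1 to 3. CK replicates 1 and 3 hold the highest and the lowest value of all 6 libraries, 10.7-fold apart, so that the spread within CK covers that of T. The means were 66.3 ± 29.8 FPKM in T and 63.5 ± 49.7 FPKM in CK (SD, n = 3 each), a ratio of 1.04. The fitted log2 fold change was 0.51 (standard error 0.85, 95% confidence interval -1.54 to 2.55, limma adjusted p = 0.999), and the exact permutation test gave p = 1 (two-sided). The direction of the fit rested on CK replicate 3, without which the log2 fold change was -0.50 (standard error 0.40). It was 0.17 without T replicate 1, 1.15 without CK replicate 1 and 0.86 without CK replicate 2. The identical annotation of this gene and Cs_ont_2g018890 thus came with unlike spreads, a coefficient of variation of 45.0% in T and 78.3% in CK for Cs_ont_2g001540 and of 27.0% in T and 30.7% in CK for Cs_ont_2g018890.

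Set side by side per length, the mean FPKM over all 6 libraries was 64.9 for Cs_ont_2g001540, 46.4 for Cs_ont_2g018890, 13.4 for Cs_ont_9g000650, 9.40 for Cs_ont_3g007940 and 0.206 for Cs_ont_1g011580. Among the tested genes, the levels of Cs_ont_2g001540 and Cs_ont_2g018890 were at the percentiles 90.5 and 85.9, and those of Cs_ont_9g000650 and Cs_ont_3g007940 at 52.4 and 41.0. The difference between neighbours in this order was tested within libraries with an exact sign-flip permutation test on log2(FPKM + 1), two-sided, adjusted over the 4 neighbour pairs, where 6 libraries allow no raw p below 0.0312. Cs_ont_2g018890 was above Cs_ont_9g000650 in 6 of 6 libraries, by 1.89 on the log2(FPKM + 1) scale on average. Cs_ont_3g007940 was above Cs_ont_1g011580 in 6 of 6 by 2.67, a gap that this scale narrows because Cs_ont_1g011580 is below 1 FPKM. Both pairs were at the smallest exact p and an adjusted p of 0.0625 (exact permutation test). Cs_ont_2g001540 was above Cs_ont_2g018890 in 4 of 6 libraries (exact permutation test, adjusted p = 0.594), and Cs_ont_9g000650 above Cs_ont_3g007940 in 5 of 6 (exact permutation test, adjusted p = 0.208). The first pair and the third pair therefore did not differ beyond their spread, and the other pairs reached the limit of the test without passing the adjusted threshold.

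The 4 tested genes did not vary together across the libraries in a way the test could tell from none. Over the 6 pairs of genes and 6 libraries, Pearson's r of log2(FPKM + 1) was from 0.17 to 0.76 and Spearman's rho from -0.20 to 0.60. The highest r was that of the transcription factor genes, 0.76 with an exact permutation p = 0.103 and an adjusted p of 0.539 over the 6 pairs, and their rho was 0.60 (exact permutation p = 0.242, adjusted p = 0.714). Without the 2 libraries farthest from the median of Cs_ont_2g018890 its r was 0.84. That of Cs_ont_3g007940 and Cs_ont_2g018890 was 0.62 with an exact permutation p = 0.194. It was -0.54 without the 2 libraries farthest from the median of Cs_ont_3g007940. Leaving them out takes away most of the range of this gene, so r over the 4 libraries that remain decides little.

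The genes whose level followed that of Cs_ont_3g007940 most closely were looked up among 9338 other tested genes with a GO or KEGG annotation, by Pearson's r of log2(FPKM + 1) over the 6 libraries. This likeness is a description, since 51 of these genes had an r above 0.9 and all share the same libraries. The closest was Cs_ont_7g001830 (r = 0.981), annotated as a UTP:glucose-1-phosphate uridylyltransferase, an enzyme that makes UDP-glucose. It stood at 39.2, 19.0 and 29.7 FPKM in T, against 15.9, 17.1 and 16.0 FPKM in CK. The next was Cs_ont_3g014760 (r = 0.976), annotated as a phospholipase D, which cleaves membrane phospholipids. It stood at 32.5, 3.78 and 19.6 FPKM in T, against 1.48, 1.79 and 0.996 FPKM in CK, and was a DEG (log2 fold change 2.63, standard error 0.69, limma adjusted p = 0.743). The third, Cs_ont_4g027870 (r = 0.974), assigned to protein export, moved within a narrow range of 32.6 to 43.4 FPKM. In all 3, T replicate 1 was the highest library, T replicate 3 the next and T replicate 2 the lowest of T, the order of Cs_ont_3g007940. This order, and a DEG among the 3, follow in part from picking genes for their likeness to a gene that was a DEG itself.

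**Figure D4:**
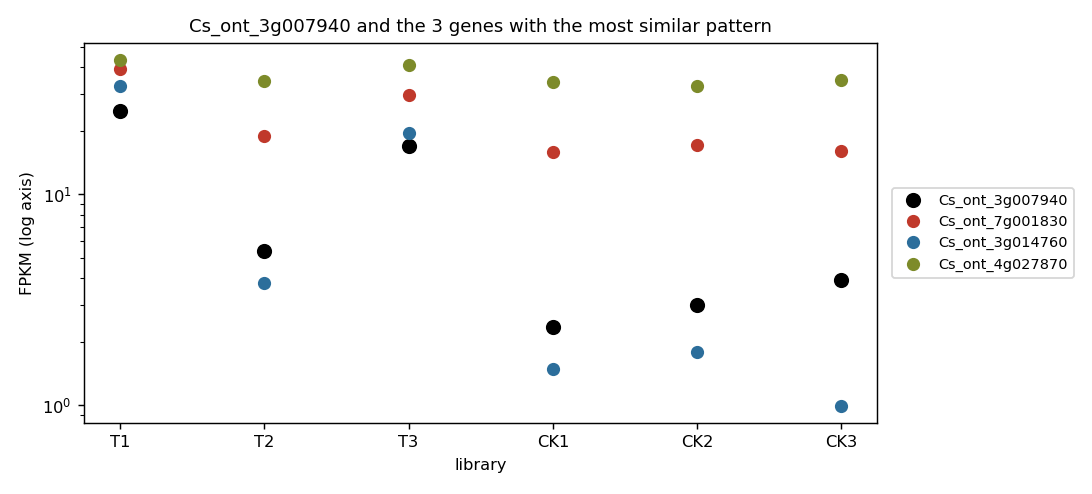
FPKM (y axis, log scale) of Cs_ont_3g007940 and the 3 genes most like it in pattern (colours) in each T library (left) and CK library (right). All 4 genes have T replicate 1 as the highest library, at 24.9 FPKM for Cs_ont_3g007940 and 39.2, 32.5 and 43.4 FPKM for the others.

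The genes most like the other members were found in the same way. For Cs_ont_9g000650 they were Cs_ont_5g003750 (r = 0.991, log2 fold change 0.32), Cs_ont_3g023430 (r = 0.989, 0.16), annotated as a transcription factor, and Cs_ont_9g001700 (r = 0.983, 0.56), assigned to protein processing in the endoplasmic reticulum. For Cs_ont_2g018890 they were Cs_ont_5g007190 (r = 0.987, log2 fold change 0.59), annotated to ubiquitin transfer, Cs_ont_7g026720 (r = 0.981, 0.57), a transcription factor annotation, and Cs_ont_5g042170 (r = 0.974, 0.39), an aspartic endopeptidase annotation. For Cs_ont_2g001540 they were Cs_ont_5g050050 (r = 0.997, log2 fold change 0.06), annotated to a palmitoyltransferase complex, Cs_ont_2g008330 (r = 0.995, 0.37), an oxidoreductase annotation, and Cs_ont_6g012480 (r = 0.994, 0.40), a calcium-binding annotation. None of these 9 genes was a DEG, which describes genes picked for following members that were not DEGs themselves. The number of genes with an r above 0.9 was 71 for Cs_ont_9g000650, 57 for Cs_ont_2g018890 and 215 for Cs_ont_2g001540.

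Other genes of anion transport, which share this annotation with Cs_ont_3g007940, Cs_ont_1g011580 and Cs_ont_9g000650, had no common direction. Of 262 further genes, 191 were tested, 98 of them higher in T and 93 lower, and the middle log2 fold change (median) was 0.01, where it was 0.02 over all tested genes. Of them 2 were DEGs higher in T and 7 DEGs lower, 4.71% in all, where 2.36% of all tested genes were DEGs. The share of DEGs was not tested for this list or those below. The lists hold only genes with a GO term, unlike the set of all tested genes, and some genes are in more than 1 list. One of the DEGs that were lower was Cs_ont_2g023170, annotated to the transport of modified amino acids, at 91.6, 106 and 203 FPKM in T, against 1004, 791 and 1152 FPKM in CK (log2 fold change -2.94, standard error 0.36, limma adjusted p = 0.222). Of 3 named DEGs annotated to sulfate transport, 2 were lower in T and 1 was higher. Cs_ont_3g010460 had 26.6, 30.1 and 30.5 FPKM in T, against 89.8, 85.9 and 130 FPKM in CK (log2 fold change -1.75, standard error 0.20, limma adjusted p = 0.221). Cs_ont_7g004480 had 21.6, 19.2 and 33.5 FPKM in T, against 84.5, 44.1 and 69.8 FPKM in CK (log2 fold change -1.37, standard error 0.31, limma adjusted p = 0.594). The gene that was higher, Cs_ont_4g007290, had 347, 212 and 162 FPKM in T, against 56.5, 5.43 and 25.6 FPKM in CK (log2 fold change 3.42, standard error 0.78, limma adjusted p = 0.598). Of the 191, Cs_ont_4g007290 was the only gene with a larger rise than Cs_ont_3g007940.

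A list of water transport, which includes the water channels to which boric acid channels belong, held 41 further genes. Of the 23 tested, 11 stood higher in T and 12 lower, the median being -0.04, and 1 was a DEG in each direction, 8.70% in all, where 2.36% of all tested genes were DEGs. The DEG that was higher, Cs_ont_5g035690, is annotated to water transport and stood at 1453, 744 and 561 FPKM in T, against 324, 56.4 and 119 FPKM in CK (log2 fold change 2.69, standard error 0.68, limma adjusted p = 0.702). It was the only tested gene of this list with a larger fold change than Cs_ont_3g007940. The DEG that was lower, Cs_ont_6g009850, is annotated to ATPase-coupled transmembrane transport. It stood at 4.31, 2.80 and 5.84 FPKM in T, against 5.97, 17.8 and 10.1 FPKM in CK (log2 fold change -1.13, standard error 0.41, limma adjusted p = 0.941). Neither DEG carries the term water channel activity.

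Pectin, the wall polymer that boron cross-links, was followed by genes of its synthesis and of its breakdown. Of 11 tested genes of pectin synthesis, 8 stood higher in T and 3 lower, at a median of 0.07. The list held 1 DEG (9.09%, against 2.36% of all tested genes), Cs_ont_6g025170, a gene with a hydroxycinnamoyltransferase annotation. It stood at 65.9, 28.2 and 82.6 FPKM in T and 95.7, 190 and 123 FPKM in CK (log2 fold change -1.27, standard error 0.45, limma adjusted p = 0.938). Of 19 tested genes of pectin breakdown, 11 were higher and 8 lower with a median of 0.21, which turned to -0.14 without T replicate 2 and -0.06 without CK replicate 3. The 2 DEGs (10.5%) were the pectinesterase Cs_ont_5g007910 and the polygalacturonase Cs_ont_7g024360. Cs_ont_5g007910 was higher at 26.4, 3.37 and 8.24 FPKM in T against 1.98, 0.507 and 0.288 FPKM in CK (log2 fold change 2.53, standard error 0.69, limma adjusted p = 0.777). Cs_ont_7g024360 was lower at 1.31, 5.52 and 1.24 FPKM in T against 3.39, 25.4 and 16.3 FPKM in CK (log2 fold change -1.97, standard error 0.75, limma adjusted p = 0.981). The T and CK libraries of Cs_ont_7g024360 overlapped.

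The response to nutrient levels is a term that Cs_ont_3g007940, Cs_ont_1g011580 and both transcription factor genes carry. Of 154 further genes tested, 85 stood higher in T and 69 lower, at a median of 0.02, and 8 DEGs were higher and 4 lower, 7.79% in all, against 2.36% of all tested genes. They include the phospholipase D gene Cs_ont_3g014760, the sulfate transport gene Cs_ont_3g010460 and the phosphate transport gene Cs_ont_9g008120. Cs_ont_9g008120 stood at 155, 72.3 and 121 FPKM in T against 51.8, 25.3 and 48.9 FPKM in CK (log2 fold change 1.45, standard error 0.38, limma adjusted p = 0.743).

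The libraries carried the transcripts of green leaf, with light-harvesting genes at 8028 to 14617 FPKM in sum in T and 12655 to 16060 FPKM in CK. Of the 22 tested light-harvesting genes, 3 stood higher in T and 19 lower, at a median log2 fold change of -0.38 with all libraries and -0.16 without T replicate 3. None of the 22 was a DEG, against 2.36% of all tested genes. In T this sum was 8028, 14617 and 8326 FPKM in replicates 1 to 3, so that replicates 1 and 3, with the higher levels of Cs_ont_3g007940, had the lower sums. Genes annotated to phloem and xylem, tissues in which boron is carried, summed to 2395 to 3892 FPKM in T and 2657 to 2678 FPKM in CK, with 27 higher and 36 lower of 63 tested and 2 DEGs, both higher (3.17%, against 2.36% of all tested genes). Guard cell genes summed to 260 to 793 FPKM in T and 340 to 668 FPKM in CK, with 13 higher and 15 lower of 28 tested. Trichome genes summed to 2250 to 3507 FPKM in T and 2556 to 2697 FPKM in CK, with 31 higher and 34 lower of 65. The sums in T had the order of 1 abundant gene annotated to lipid transport, Cs_ont_6g013100, at 753, 1562 and 125 FPKM in replicates 1 to 3. Root hair genes summed to 1582 to 1683 FPKM in T and 1539 to 1927 FPKM in CK, with 38 higher and 29 lower of 67. These lists were taken by GO annotation, and genes annotated to root hairs had high sums in leaf as well. The sums are therefore not a measure of the cells of a type. The part of cell types in the level of Cs_ont_3g007940 was not tested, and fewer cells of a type and less RNA per cell cannot be told apart in such samples.

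**Figure D5:**
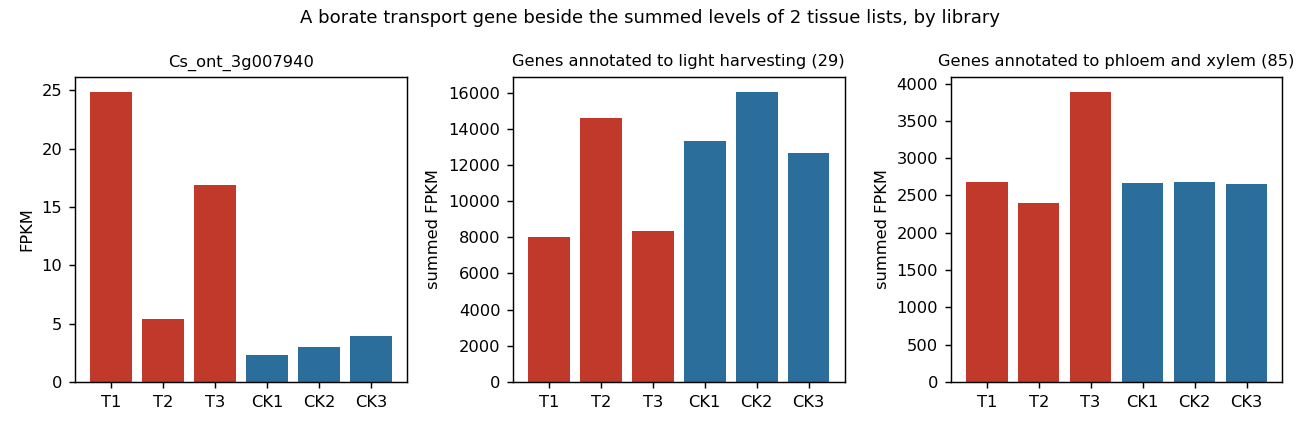
FPKM of Cs_ont_3g007940 (left panel) and summed FPKM of 29 light-harvesting genes (middle) and 85 phloem and xylem genes (right) in each library, T in red left of CK in blue, with all axes from 0. The light-harvesting sum is lowest in T replicates 1 and 3, at 8028 and 8326 FPKM, the T libraries with 24.9 and 16.9 FPKM of Cs_ont_3g007940.

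The library totals by which the FPKM values were scaled were 17769864 to 24127985 reads, as the steps of the values imply. The values do not give the number of reads sequenced. The libraries were little closer within groups than between them, since Pearson's r of log2(FPKM + 1) across genes had a median of 0.911 for libraries of a group and 0.893 for libraries of different groups, and was highest, at 0.958, for T replicate 3 with CK replicate 1. Genes are not independent replicates, and these values describe the libraries only.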

How the data were processed

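RNA sequencing values of 6 leaf libraries were used, 3 of T and 3 of CK, grouped by the library titles. The authors deposited FPKM per gene, made per the paper's methods with fastp (trimming), HISAT2 (alignment) and HTSeq (counting). For these tools the version, and for the alignment the genome build, is not stated in the sources used. The authors' fold changes, p-values and calls from DESeq in the same table were not used. Whole reads were recovered from the steps of the FPKM values, and all 22740 genes above 0 gave whole reads in every library within 1e-05 (100.00%). A factor common to a gene's reads and its length would go unseen. The length was the smallest of many tried, so genes with reads in few libraries can fit by chance.

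The T and CK libraries were compared by limma 3.58.1 in R 4.3.3 (intensity trend, two-sided, Benjamini-Hochberg) on log2(FPKM + 1) over the 16421 genes with at least 1 FPKM in at least 3 libraries. The threshold for DEGs follows the methods of the paper. The fit was also run on data simulated from its own model, which cannot test whether that model holds for these libraries. Exact permutation tests were run with scipy 1.17.1. Gene functions are GO or KEGG annotations of the table, as a rule the molecular function held by the fewest genes, and not identities. Lists were taken by GO identifiers without the 5 genes, and no test was run on a list as a whole. The members and lists were chosen with earlier results of these data known. The rule for naming took the 5 genes, any other gene with a borate term, from each list the 3 genes of highest level and up to 5 DEGs, and the 3 genes most alike in pattern, and the text gives those that bear on the 5 genes. Alternatives were other pseudocounts (0.1 and 5), no filter or one at 5 FPKM, median scaling, a replicate block, array weights, limma voom on the recovered reads and leaving out each library. No sequences or positions of these identifiers were used here.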

Additional observations from a re-analysis of the deposited data

How the results depend on the processing

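Precision rested on 3 libraries per group, and Cs_ont_1g011580 had the fewest reads of the 5 genes, 3 to 31 per library. Cs_ont_3g007940 stayed a DEG in all 14 settings, with a log2 fold change of 1.41 to 2.42 when 1 library was left out, and the order of the levels of the 5 genes was the same in T alone, in CK alone and without any 1 library. The number of the 5 genes that were DEGs was 1 as reported, 2 with array weights and 1 to 2 when 1 library was left out. Cs_ont_9g000650 became a DEG with array weights (1.18) and without T replicate 3 (1.44), within a range of 0.46 to 1.44 when 1 library was left out, that of Cs_ont_2g018890 was 0.23 to 0.68, and the sign of Cs_ont_2g001540 turned without CK replicate 3 (-0.50), within a range of -0.50 to 1.15 when 1 library was left out.

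Over all genes, 209 DEGs were higher and 178 lower in T as reported. With a pseudocount of 5 there were 121 and 104, with a filter at 5 FPKM 137 were higher, and with array weights 567 were higher and 363 lower. Leaving out 1 library gave 121 to 398 higher (121 without T replicate 1, 137 without CK replicate 2, 348 without CK replicate 1, 398 without T replicate 3) and 120 to 396 lower (396 without CK replicate 1). The count of genes called by limma at an adjusted p under 0.05 was 1 as reported, 0 with a pseudocount of 5, with no filter, with the replicate block and with voom on the recovered reads, 12 with array weights and 0 to 2 when 1 library was left out. The median log2 fold change of light harvesting was -0.19 with no filter and -0.45 to -0.16 when 1 library was left out. The median of pectin breakdown was -0.00 with no filter and -0.14 to 0.26 when 1 library was left out. The medians of the other lists, all within 0.1 of 0 as reported, also took either sign when 1 library was left out. The causes were not tested.

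Whether the replicate numbers pair the libraries was not settled. The deviations from the group means correlated at 0.282, 0.212 and -0.037 for T and CK replicates 1, 2 and 3, so that the third pair was below 0. For T and CK libraries of unlike number the values went from -0.404 to 0.227. With the replicate block, 270 DEGs were higher and 200 lower, and Cs_ont_3g007940 had the same log2 fold change of 1.84 (standard error 0.47). For Cs_ont_9g000650 the log2 fold change stayed at 0.80, with a standard error of 0.26 in place of 0.58 (limma unadjusted p = 0.0329, adjusted p = 0.699).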
